A study of Mus musculus with 12 samples.

Results

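Complex I of the respiratory chain was followed through the mRNAs of 35 of its nuclear-encoded subunits, which were taken by gene symbol from a table of raw gene counts. All 35 were found among the 48795 genes of the table and all 35 were among the 14676 genes that passed the filter on low counts, with between 137 and 58258 counts per subunit and library. Their genes lie on 15 chromosomes, with 2 of them on X. Other nuclear subunits of the complex were not analysed here, and the mRNAs of ND subunits, encoded by mitochondrial DNA, are given after the 35. The RNA came from long-term hematopoietic stem cells (LT-HSCs; lineage-negative cells with Sca-1, c-KIT and CD150 and without *Flt3* and CD48) of mouse bone marrow (BM), sorted into the fraction with the least (c-KITlo) and the most (c-KIThi) surface c-KIT, the receptor for stem cell factor. There were 4 groups of 3 libraries each, normal c-KIThi, normal c-KITlo, CML c-KIThi and CML c-KITlo, although the sample labels speak of more biological replicates per group than were analysed here. CML mice were Scl-tTA-BCR-ABL animals, in which a tetracycline-controlled transactivator under the Scl (Tal1) promoter switches on BCR-ABL once the drug is withdrawn, so that a myeloproliferative disease like chronic myeloid leukemia (CML) develops. The labels call the normal donors B6 mice, whereas the design given with the study has marrow of the transgenic line moved into lethally irradiated CD45.1 recipients, with controls kept on doxycycline. Whether the normal libraries came from nontransgenic or from doxycycline-fed transgenic marrow could not be told apart here. Each group name below gives the disease state and c-KIT fraction in the labels of its libraries. The labels call the normal cells LT-HSC and the CML cells LSC (leukemia stem cell). Both are called LT-HSCs below, as in the study.

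Complex I (NADH:ubiquinone oxidoreductase) takes electrons from NADH in the mitochondrial matrix, passes them to ubiquinone and pumps protons across the inner membrane. Its catalytic core consists of subunits with the NADH and iron-sulfur sites, which are encoded in the nucleus and form the matrix arm, and of ND subunits encoded by mitochondrial DNA, which form the membrane arm. A larger set of nuclear accessory subunits surrounds this core and is needed for its assembly and stability. Quiescent LT-HSCs are known to rely less on respiration than their cycling progeny. Of the subunits analysed, *Ndufs1*, *Ndufs3*, *Ndufs7*, *Ndufs8*, *Ndufv1* and *Ndufv2* belong to the catalytic core and the other 29 are accessory.

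Library size was 7753878 to 9843191 gene counts in normal c-KIThi and 14487608 to 31020852 in normal c-KITlo libraries. In CML it was 9730576 to 13213021 in c-KIThi and 17653931 to 20749935 in c-KITlo libraries, so the c-KITlo libraries were the larger in both disease states. Several properties of the libraries followed the c-KIT fraction. Entries for reads that matched several places made up 61.8% to 66.6% of all entries in normal c-KIThi, 34.3% to 52.3% in normal c-KITlo, 58.9% to 66.9% in CML c-KIThi and 38% to 39.4% in CML c-KITlo libraries. Genes with a main protein-coding transcript under 1 kb took 28.2% to 38.8% and 22.9% to 37.8% of gene counts in normal and CML c-KIThi libraries, against 6.46% to 21.3% and 8.11% to 8.85% in the c-KITlo libraries. *Kit* mRNA did not follow the gate. It stood at 132, 143 and 129 CPM (counts relative to the TMM-scaled library size) in normal c-KIThi, 380, 675 and 33.6 in normal c-KITlo, 57.6, 104 and 218 in CML c-KIThi and 470.4, 494 and 565 in CML c-KITlo libraries, so that all 3 CML and 2 of 3 normal c-KITlo libraries lay above every c-KIThi library of their disease state. The log2 difference was 1.43 ± 0.76 in normal and 2.01 ± 0.77 in CML (SE; edgeR, adjusted p = 0.254 and 0.115), for a main transcript of 5214 bases. The 8 genes listed as LT-HSC markers, none of them at 0 in a group, summed to 749.9 to 938 and 956 to 1229 CPM in normal and CML c-KIThi libraries, and to 2001 to 3631 and 2147 to 2647 CPM in the c-KITlo libraries. *Slamf1*, which encodes CD150, was at 0.0332 CPM in normal c-KITlo replicate 1 and at 26.5 CPM or more in every other library. *Flt3* and *Cd48*, whose products the gate excludes, were at up to 52.8 and 21.3 CPM in a library. Of the 6 lists of other blood cells reported here, only the B cell list did not overlap between the normal fractions (78.6 to 92.4 CPM in c-KIThi and 145 to 374 CPM in c-KITlo). In CML the monocyte, B cell, and T and NK cell lists were lower in all c-KITlo libraries (639 to 1148, 114 to 176 and 311 to 1088 CPM in c-KIThi against 417 to 448, 66.1 to 92.3 and 169.6 to 222). Most of these CML sums came from 1 gene each, *Lyz2* (586 to 1032 against 367 to 378 CPM), *Cd79b* (114 to 176 against 65.5 to 89.2) and *Nkg7* (308 to 1084 against 169.6 to 221), so they do not stand for the cell types as a whole. Of the other monocyte genes *Csf1r* went the other way (0 to 0.110 CPM in c-KIThi and 1.13 to 17.04 in c-KITlo). *Csf1r*, *Cd3e*, *Trbc2* and *Cpa3* were at 0 in every normal c-KITlo library, *Cd79a* in every c-KIThi library, and *Ms4a1* and *Cd3e* in every CML c-KIThi and every CML c-KITlo library. *Trbc2* was also at 0 in CML c-KITlo. The neutrophil list summed to 9.38 to 5280 CPM in normal c-KITlo libraries, and all 7 of its genes were highest in replicate 3. *Elane*, *Ngp* and *S100a9* stood at 1414, 1529 and 885 CPM there. They were at 66.9, 24.5 and 51.7 in replicate 1 and at 2.10, 2.77 and 1.08 in replicate 2. The list also varied in normal c-KIThi (42.3 to 710), CML c-KIThi (329 to 2136) and CML c-KITlo libraries (35.6 to 1594). Replicate 1 of normal c-KITlo stood apart on the main axis of variation. The part of these properties in the results below was not tested. Fewer cells of a kind and less RNA per cell cannot be told apart in such bulk samples.

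Together the 35 subunits took a smaller part of the gene counts in c-KITlo than in c-KIThi libraries. Their share of gene counts was 3.26% to 5.22% in normal c-KIThi and 0.470% to 1.68% in normal c-KITlo libraries. In CML it was 2.08% to 3.88% in c-KIThi and 0.532% to 0.589% in c-KITlo libraries, and in neither disease state did the fractions overlap. Gene counts were themselves a smaller part of all entries in c-KIThi libraries. They made up 24.4% to 28.3% in normal and 26.7% to 37.1% in CML c-KIThi libraries, against 43.9% to 60.6% and 55.8% to 57.3% in c-KITlo. The gap between fractions would be smaller as a share of all entries. CML c-KITlo libraries were alike, with a median coefficient of variation (CV) over the subunits of 8.02%, against 49.2% in normal c-KIThi, 52.5% in CML c-KIThi and 79.2% in normal c-KITlo libraries. Over all tested genes at 20 CPM or more the median CV was 12.9%, 35.5%, 38.9% and 60.6% in the same order. In the normal groups most subunits shared the same highest library. Among normal c-KITlo libraries replicate 3 was the highest for 34 of the 35 and replicate 2 the lowest for 33, and among normal c-KIThi libraries replicate 1 was the highest for 33. Genes with a main transcript under 1 kb took 21.3%, 6.46% and 38.8% of gene counts in these libraries, also the extremes of their groups. Of the normal c-KITlo libraries, replicate 3 was also the highest for the neutrophil genes named above, and replicate 2 the lowest. The part of this in the subunit levels was not tested. The CML groups were less uniform. Replicate 1 was the highest for 12 and replicate 2 for 23 subunits in CML c-KIThi. In CML c-KITlo replicates 1, 2 and 3 were the highest for 7, 20 and 8.

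**Figure D1:**
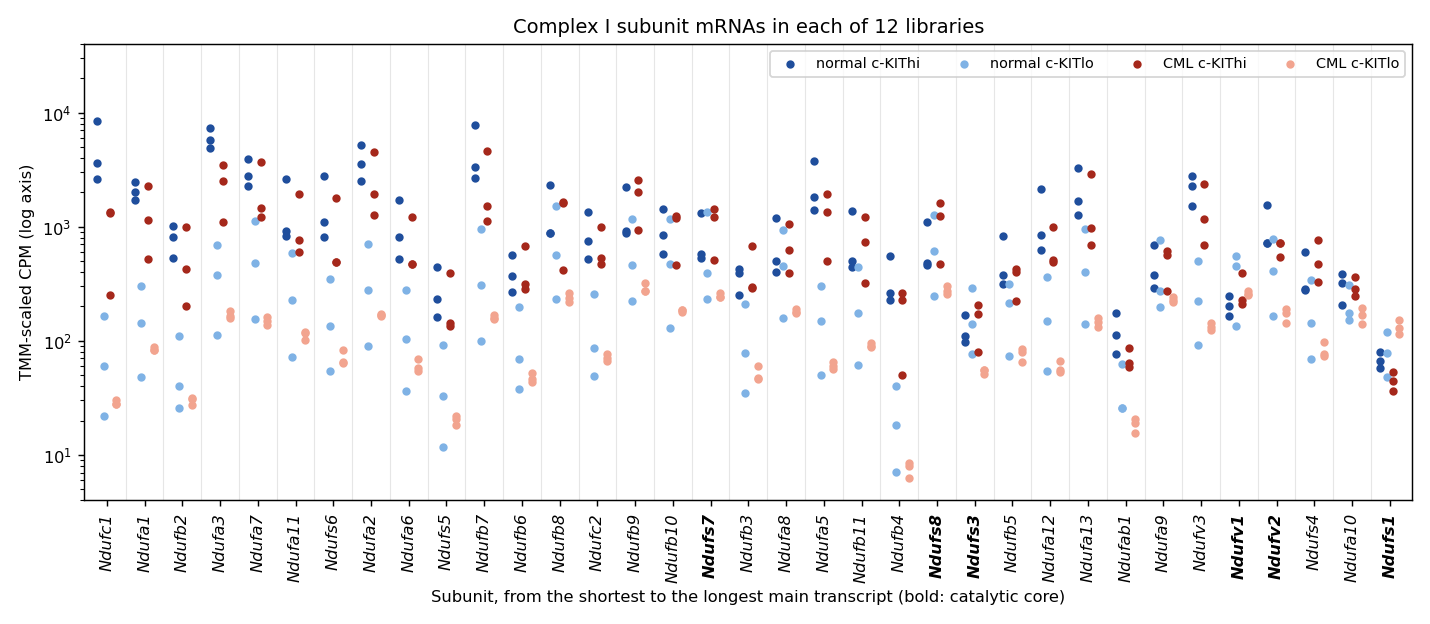
Level of each of the 35 subunit mRNAs in every library, in CPM (counts scaled to TMM-adjusted library sizes, log axis), with subunits ordered from the shortest to the longest main transcript and 1 point per library. The c-KITlo points lie below the c-KIThi points for most short transcripts at the left, whereas *Ndufv1* and *Ndufs1* at the right do not show this order.

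How the fractions differed in normal marrow was tested by edgeR with adjustment over all genes. In normal c-KITlo compared with c-KIThi LT-HSCs, 14 of the 35 subunits fell, none rose and 21 did not pass, against 3.4% of all genes called lower and 3.1% called higher. The median log2 fold change of the subunits was -1.97, against 0.16 for all genes tested. All 3 c-KITlo libraries lay below all 3 c-KIThi libraries for 21 subunits, and this was so for 12.6% of all genes. The count rested on single libraries. It was 0 without normal c-KIThi replicate 1 or 2 or normal c-KITlo replicate 1, 23 without normal c-KITlo replicate 3, 8 without normal c-KIThi replicate 3 or CML c-KITlo replicate 3, and 6 without CML c-KITlo replicate 1 or 2. It was also 0 with limma-voom or with only these groups in the fit, and 22 with DESeq2. Scaling by medians of ratios moved the median of all genes to 0.022 and called 17 subunits lower.

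In CML c-KITlo compared with c-KIThi LT-HSCs, 25 subunits fell, 1 rose and 9 did not pass, against 5.53% of all genes called lower and 2.91% called higher. The median log2 fold change was -3.16, against 0.047 for all genes. The c-KITlo libraries lay below the c-KIThi libraries for 33 subunits and above them for 1, against 23.6% and 27.6% of all genes. All 14 subunits that fell in normal marrow were among the 25. No subunit was called lower without CML c-KIThi replicate 2, nor without any single CML c-KITlo replicate, although 34 of the 35 kept a fold change below 0 in each of these fits. DESeq2 called 31 subunits lower, and limma-voom and the fit of only these groups called 33 each. The 25 were among them each time. With offsets that took out each library's trend on main transcript length, 8 subunits were called lower, and the subunit that rose was not called.

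**Figure D2:**
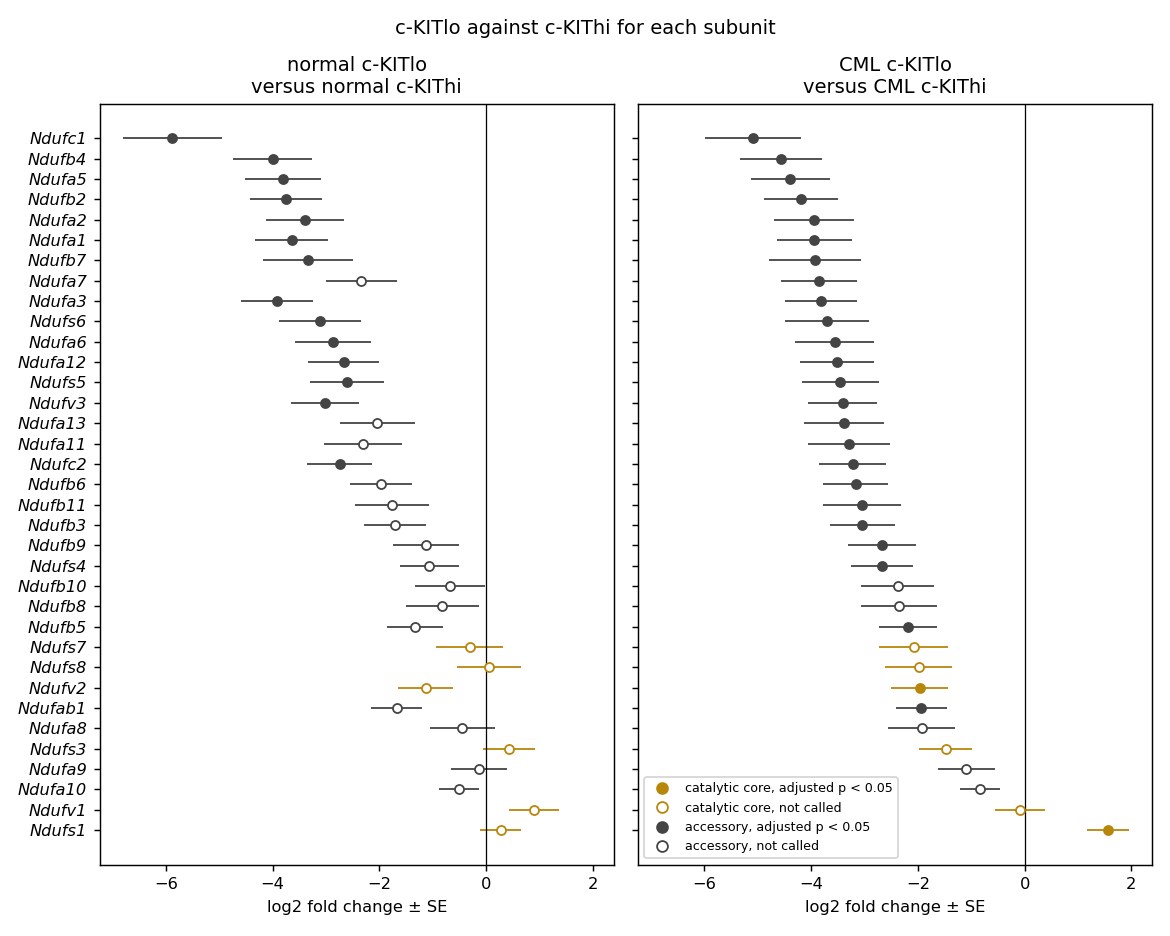
Log2 fold change of each subunit in c-KITlo compared with c-KIThi LT-HSCs (points) with the SE of the edgeR fit (bars), in normal (left) and CML (right) mice, ordered by the CML value. Filled points passed an adjusted p of 0.05. The catalytic core, in gold, lies at the lower end of the order, from *Ndufs7* to *Ndufs1*.

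The core subunits had smaller fold changes than most accessory subunits. *Ndufs1*, the large iron-sulfur subunit at the NADH end of the matrix arm, went the other way in CML. *Ndufs1* stood at 79.6, 57.6 and 66.3 CPM in the 3 normal c-KIThi libraries, 78.1, 120.1 and 47.9 in normal c-KITlo, 53.5, 44.6 and 36.02 in CML c-KIThi and 153, 115 and 129 in CML c-KITlo. All 3 CML c-KITlo libraries lay above all 3 CML c-KIThi libraries, and it was 2.95-fold higher (1.56 ± 0.39 on the log2 scale, where ± is the SE here and below; edgeR, adjusted p = 0.0333). In normal marrow the fractions overlapped (0.27 ± 0.39, adjusted p = 0.716), and the CML call was lost in 8 of 12 fits that left out a library, without the filter on low counts and with either length offset. *Ndufv1* carries the flavin that accepts electrons from NADH. *Ndufv1* stood at 201, 165 and 246 CPM in the 3 normal c-KIThi libraries, 451, 134 and 550.1 in normal c-KITlo, 389.8, 211 and 228 in CML c-KIThi and 273, 251 and 257 in CML c-KITlo. Its fractions overlapped in both disease states, at 0.89 ± 0.46 in normal and -0.085 ± 0.46 in CML (adjusted p = 0.246 and 0.930). *Ndufv2*, its iron-sulfur partner, was the only core subunit that fell. *Ndufv2* stood at 1552, 713 and 716 CPM in the 3 normal c-KIThi libraries, 407, 165 and 786 in normal c-KITlo, 726, 717 and 541 in CML c-KIThi and 175, 191 and 143 in CML c-KITlo. It was 3.90-fold lower in CML c-KITlo than c-KIThi LT-HSCs (-1.96 ± 0.53, adjusted p = 0.0419), a call that was lost in 8 of 12 fits with a library left out, and stood at -1.14 ± 0.52 in normal marrow (adjusted p = 0.185).

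The remaining core subunits link the NADH end to the ubiquinone site. *Ndufs3* stood at 167, 111 and 98.3 CPM in the 3 normal c-KIThi libraries, 139.5, 76.98 and 292 in normal c-KITlo, 204, 170.2 and 79.3 in CML c-KIThi and 51.7, 55.3 and 55.7 in CML c-KITlo. *Ndufs7* stood at 1330, 578 and 532 CPM in the 3 normal c-KIThi libraries, 390.3, 232 and 1348 in normal c-KITlo, 1420, 1227 and 515 in CML c-KIThi and 263, 243 and 244 in CML c-KITlo. *Ndufs8* stood at 1102, 483 and 465 CPM in the 3 normal c-KIThi libraries, 611, 246 and 1270 in normal c-KITlo, 1612, 1244 and 467 in CML c-KIThi and 276, 304 and 259.9 in CML c-KITlo. Each of them was lower in all 3 CML c-KITlo than in all 3 CML c-KIThi libraries, while their normal fractions overlapped, with normal c-KITlo replicate 3 above every normal c-KIThi library for each. The CML differences did not pass, at -1.48 ± 0.50 for *Ndufs3*, -2.08 ± 0.65 for *Ndufs7*, which holds the iron-sulfur cluster next to ubiquinone, and -1.98 ± 0.62 for *Ndufs8* (adjusted p = 0.0801, 0.0654 and 0.0664). DESeq2, limma-voom and the fit of these groups alone called all of them lower. In normal marrow the values were 0.43 ± 0.49, -0.31 ± 0.63 and 0.054 ± 0.60 (adjusted p = 0.634, 0.810 and 0.970). *Ndufs8* changed sign there with medians of ratios in place of TMM.

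Of the 9 accessory subunits of the matrix arm, 6 fell in normal and 8 in CML, against 3.4% and 5.53% of all genes called lower. *Ndufv3* sits beside the flavin subunit at the tip of the arm. *Ndufv3* stood at 2764, 2284 and 1531 CPM in the 3 normal c-KIThi libraries, 223, 91.5 and 499 in normal c-KITlo, 687, 2374 and 1171 in CML c-KIThi and 143, 131 and 124 in CML c-KITlo. The fractions did not overlap, and *Ndufv3* fell 8.08-fold in normal (-3.02 ± 0.64, adjusted p = 0.0248) and 10.6-fold in CML (-3.41 ± 0.65, adjusted p = 0.0153). *Ndufa2*, a thioredoxin-like accessory subunit of the same region, showed the same order of libraries. *Ndufa2* stood at 5259, 3513 and 2538 CPM in the 3 normal c-KIThi libraries, 279, 90.9 and 707 in normal c-KITlo, 1270, 4545 and 1953 in CML c-KIThi and 173, 164 and 169 in CML c-KITlo. It fell 10.5-fold in normal (-3.39 ± 0.73, adjusted p = 0.0256) and 15.4-fold in CML (-3.94 ± 0.75, adjusted p = 0.0153). *Ndufa7* and *Ndufa5* belong further down the matrix arm. *Ndufa7* stood at 3903, 2774 and 2258 CPM in the 3 normal c-KIThi libraries, 481, 156 and 1126 in normal c-KITlo, 1217, 3723 and 1455 in CML c-KIThi and 137, 161 and 148 in CML c-KITlo. *Ndufa5* stood at 3762, 1835 and 1393 CPM in the 3 normal c-KIThi libraries, 151, 50.5 and 300 in normal c-KITlo, 504, 1943 and 1351 in CML c-KIThi and 57.04, 59.8 and 64.8 in CML c-KITlo. *Ndufa5* fell in both, 13.95-fold in normal and 20.9-fold in CML (adjusted p = 0.0186 and 0.0151). *Ndufa7* fell 14.3-fold in CML (adjusted p = 0.0153), and its normal difference of -2.34 ± 0.67 did not pass (adjusted p = 0.0553) although its fractions did not overlap.

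Of the other matrix arm accessory subunits, *Ndufs6*, which binds zinc, *Ndufa6*, which anchors an acyl carrier protein, and *Ndufa12* fell in both disease states. *Ndufs6* stood at means of 1566 ± 1078 and 180.2 ± 153 CPM in normal c-KIThi and c-KITlo libraries and of 920.2 ± 739 and 71.1 ± 10.9 in CML (SD, n = 3). The log2 fold changes in normal and CML were -3.12 and -3.69 for *Ndufs6*, -2.87 and -3.56 for *Ndufa6*, and -2.67 and -3.51 for *Ndufa12* (adjusted p between 0.0160 and 0.0392). *Ndufs4*, whose loss in mice causes a Leigh-like encephalopathy, fell in CML (-2.67 ± 0.58, adjusted p = 0.0209) and did not pass in normal marrow (-1.06 ± 0.55, adjusted p = 0.246). *Ndufa9*, a dehydrogenase-like subunit near the ubiquinone site, passed in neither (-0.13 ± 0.53 and -1.09 ± 0.53, adjusted p = 0.911 and 0.210). *Ndufab1*, the mitochondrial acyl carrier protein found in both arms, fell in CML (-1.93 ± 0.48, adjusted p = 0.0321) and stood at -1.67 ± 0.48 in normal marrow (adjusted p = 0.0553). *Ndufab1* stood at 176, 112 and 76.99 CPM in the 3 normal c-KIThi libraries, 25.6, 25.8 and 62.9 in normal c-KITlo, 63.6, 87.2 and 59.5 in CML c-KIThi and 19.1, 20.6 and 15.5 in CML c-KITlo. Its fractions did not overlap in either disease state.

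The membrane arm held the largest fall. *Ndufc1*, a small subunit beside ND2 (chromosome 3, 51404677 to 51408988 of GRCm38, minus strand), had the largest fold in both disease states. *Ndufc1* stood at 8421, 3592 and 2625 CPM in the 3 normal c-KIThi libraries, 60.7, 21.7 and 167 in normal c-KITlo, 251, 1350 and 1330 in CML c-KIThi and 27.99, 30.5 and 27.7 in CML c-KITlo. Its c-KITlo libraries lay far below every c-KIThi library, and it fell 58.8-fold in normal (-5.88 ± 0.93, adjusted p = 0.0142) and 34.01-fold in CML (-5.09 ± 0.89, adjusted p = 0.0151). *Ndufa1* and *Ndufa3* lie where the membrane arm meets the matrix arm. *Ndufa1* stood at 2463, 2029 and 1714 CPM in the 3 normal c-KIThi libraries, 143, 47.7 and 305 in normal c-KITlo, 521, 2257 and 1138 in CML c-KIThi and 83.7, 88.4 and 83.3 in CML c-KITlo. *Ndufa3* stood at 7329, 5791 and 4909 CPM in the 3 normal c-KIThi libraries, 381, 113 and 697 in normal c-KITlo, 1091, 3453 and 2524 in CML c-KIThi and 163, 181 and 159 in CML c-KITlo. Both fell, *Ndufa1* 12.5-fold in normal and 15.3-fold in CML, and *Ndufa3* 15.2-fold and 14.04-fold (adjusted p between 0.0151 and 0.0186).

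Ndufb subunits make up the far end of the membrane arm. *Ndufb2* stood at 1023, 821 and 529.7 CPM in the 3 normal c-KIThi libraries, 40.1, 25.7 and 111 in normal c-KITlo, 201, 998 and 422 in CML c-KIThi and 30.6, 31.3 and 27.1 in CML c-KITlo. *Ndufb4* stood at 558, 264 and 228 CPM in the 3 normal c-KIThi libraries, 18.4, 7.02 and 40.4 in normal c-KITlo, 50.2, 262 and 226 in CML c-KIThi and 8.07, 8.49 and 6.25 in CML c-KITlo. In neither gene did the fractions overlap, and CML c-KITlo libraries were within a narrow range. *Ndufb2* fell 13.4-fold in normal and 18.2-fold in CML, and *Ndufb4* 15.95-fold and 23.6-fold (adjusted p between 0.0151 and 0.0182). *Ndufb7*, a disulfide-bridged subunit of the intermembrane space, fell in both (-3.34 and -3.92, adjusted p = 0.0388 and 0.0209).

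Of the other Ndufb genes, *Ndufb3*, *Ndufb5*, *Ndufb6*, *Ndufb9* and *Ndufb11* fell in CML, with log2 fold changes of -3.04, -2.19, -3.16, -2.67 and -3.05 (adjusted p between 0.0153 and 0.0323). None of them passed in normal marrow, where they stood at -1.71, -1.34, -1.97, -1.13 and -1.77. *Ndufb8* and *Ndufb10* passed in neither. *Ndufb8* stood at means of 1360 ± 829, 767 ± 661, 1224 ± 696 and 239 ± 20.3 CPM in normal c-KIThi, normal c-KITlo, CML c-KIThi and CML c-KITlo libraries (SD, n = 3). Its CML fractions did not overlap, and the difference was -2.36 ± 0.71 (adjusted p = 0.0588). For *Ndufb10* it was -2.38 ± 0.69 (adjusted p = 0.0509).

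Among the remaining membrane arm subunits, *Ndufc2*, the partner of *Ndufc1*, and *Ndufs5*, a subunit of the intermembrane space, fell in both disease states. *Ndufc2* changed by -2.74 ± 0.61 in normal and -3.22 ± 0.62 in CML, and *Ndufs5* by -2.61 ± 0.70 and -3.45 ± 0.72 (adjusted p between 0.0153 and 0.0462). *Ndufa11* and *Ndufa13*, also known as GRIM-19, fell in CML (-3.29 and -3.39, adjusted p = 0.0252 and 0.0214) and did not pass in normal marrow (-2.31 and -2.04, adjusted p = 0.0770 and 0.0958). *Ndufa8* and *Ndufa10* passed in neither, at -0.45 and -0.52 in normal and -1.93 and -0.83 in CML. Exonic bases shared with a neighbouring gene, which these libraries cannot assign to a strand, made up 10% or more of *Ndufb6* (39%), *Ndufa13* (29.98%), *Ndufb9* (19.5%), *Ndufb11* (12.9%), *Ndufb5* (12.3%) and *Ndufa2* (11.5%). Of the other subunits, 4 had 10% or more of the 50-base words of their transcripts in other genes as well, *Ndufs5* (21.7%), *Ndufb4* (18.3%), *Ndufs3* (17.9%) and *Ndufa12* (17.7%). The levels of these 10 subunits are uncertain to that extent.

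The promoters were searched for letters of factors known to act on respiratory genes. RefSeq promoters (GRCm38.p6) were matched for 32 of the 35 subunits. In the 250 bases before the start, GCANGCGC, part of the motif of NRF1, an activator of nuclear respiratory genes, occurred on either strand in 10 of the 32 (31.25%) and in 7.857% of all 32851 promoters. Of these 10, 6 were called lower in normal and 8 in CML c-KITlo LT-HSCs, against 13 and 23 of the 32. CCGGAAG, bound by ETS factors, was found in 3 (9.375%, and 6.907% of all), and AAGATGGC, bound by YY1, in none (1.565% of all). A match is a description of letters and shows no binding. The stretches before the annotated transcripts are shown for the 4 subunits called lower in CML whose match lay outside all annotated transcripts. They are printed 5′ to 3′ on the strand of the gene, from chr15:82354323-82354441 (minus) for *Ndufa6*, chr4:123718203-123718336 (minus) for *Ndufs5*, chr3:32736913-32736989 (plus) for *Ndufb5* and chr17:56717612-56717761 (plus) for *Ndufa11*, with the NRF1 letters in capitals.
Ndufa6: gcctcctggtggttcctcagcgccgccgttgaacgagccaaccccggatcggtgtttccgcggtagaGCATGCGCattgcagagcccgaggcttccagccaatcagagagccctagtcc
Ndufs5: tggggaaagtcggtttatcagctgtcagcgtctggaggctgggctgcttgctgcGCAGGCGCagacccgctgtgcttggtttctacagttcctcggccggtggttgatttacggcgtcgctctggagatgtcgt
Ndufb5: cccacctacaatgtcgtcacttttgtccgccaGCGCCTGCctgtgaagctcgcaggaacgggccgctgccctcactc
Ndufa11: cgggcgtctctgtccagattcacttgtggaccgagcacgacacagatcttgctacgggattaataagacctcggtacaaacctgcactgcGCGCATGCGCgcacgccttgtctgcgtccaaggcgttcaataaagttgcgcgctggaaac
In *Ndufa11* the match on one strand overlaps the match on the other. *Ndufa6* and *Ndufs5* fell in both disease states, and *Ndufb5* and *Ndufa11* in CML.

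Core and accessory subunits were then set side by side, as a description without a test. Over all genes 3.4% were called lower in normal marrow and 5.53% in CML. Among genes with a main transcript under 1 kb it was 14.6% and 36.2%. In normal marrow 0 of the 6 core and 14 of the 29 accessory subunits were called lower, with median log2 fold changes of 0.16 and -2.34. A count of 0 among 6 genes is near the share of all genes. The core median was below 0, at -0.42, without normal c-KITlo replicate 3. In CML 1 of the 6 core and 24 of the 29 accessory subunits were called lower, with medians of -1.72 and -3.39. Split by name instead, 3 of the 10 Ndufs and Ndufv genes and 11 of the 25 Ndufa, Ndufb and Ndufc genes were called lower in normal (medians -0.69 and -2.31), and 5 and 20 in CML (medians -2.03 and -3.29). The 5 in CML were *Ndufv2* and the accessory *Ndufv3*, *Ndufs4*, *Ndufs5* and *Ndufs6*. Across the arms, 6 of 15 matrix and 8 of 19 membrane arm genes were called lower in normal (medians -1.14 and -2.04), and 9 and 15 in CML (medians -2.67 and -3.22).

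On a scale per length, the mean log2 CPM per kb of main transcript was lower for the core than for the accessory subunits in c-KIThi libraries, by 2.13 to 2.64 in normal and 1.01 to 2.47 in CML. In c-KITlo libraries the core minus accessory difference was -0.46 to 0.45 in normal and 0.16 to 0.32 in CML, so the classes were closer to equal there. The geometric mean of the accessory subunits was 844 to 1997 CPM per kb in normal c-KIThi and 83.2 to 482 in normal c-KITlo libraries. That of the core was 183 to 321 and 113 to 351, and overlapped between the fractions. In CML the accessory mean was 655 to 1444 in c-KIThi and 102 to 113 in c-KITlo libraries, and the core mean 158 to 329 and 120.3 to 131. The spread of levels between subunits also narrowed. The group mean of the highest subunit was 592 times that of the lowest in normal c-KIThi (*Ndufc1* at 15490 and *Ndufs1* at 26.2 CPM per kb), and 49.9 times in normal c-KITlo (*Ndufb8* at 1128 and *Ndufb4* at 22.6). In CML it was 265 times in c-KIThi (*Ndufa3* and *Ndufs1*) and 52.3 times in c-KITlo (*Ndufb9* and *Ndufb4*).

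**Figure D3:**
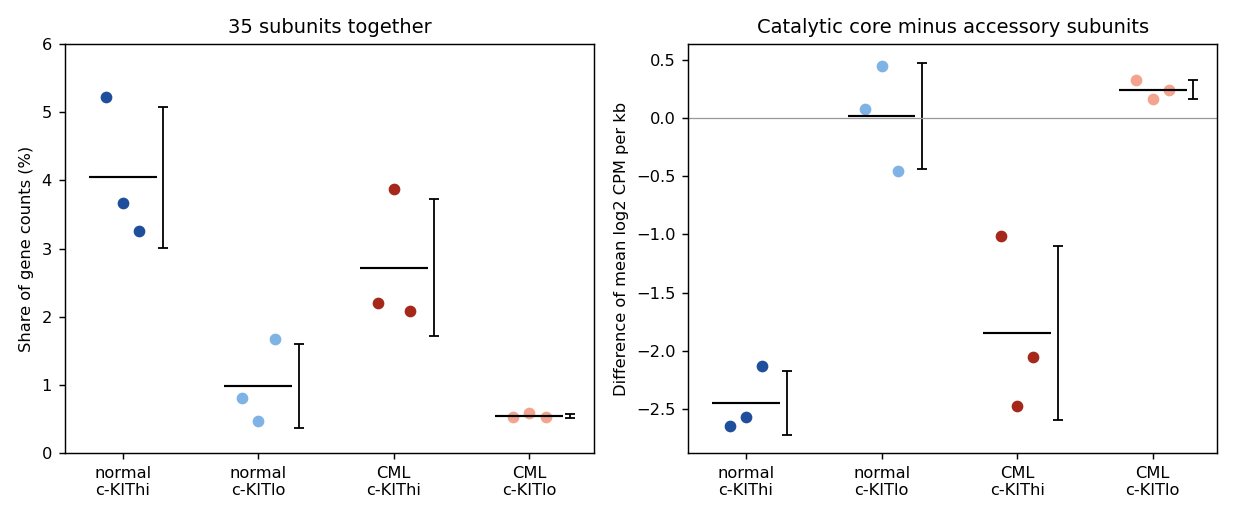
Left, share of gene counts on the 35 subunits, in percent. Right, mean log2 CPM per kb of main transcript of the 6 core subunits minus that of the 29 accessory subunits. Points are libraries, the horizontal line is the group mean and the bar its SD (n = 3); in both disease states the c-KITlo points do not overlap the c-KIThi points.

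Among the subunits, fold changes were smaller for longer transcripts. Exonic length, the union of all annotated exons, ran from 419 bases in *Ndufa1* to 8086 in *Ndufs1*, with a median of 2162 in the core and 1251 in the accessory subunits. For some genes this union is far longer than the main protein-coding transcript, as in *Ndufb2* (5628 and 455 bases) and *Ndufb7* (4522 and 623 bases). The main transcript had a median of 1354 bases in the core (758 to 2590) and 704 in the accessory subunits (315 to 2020). Across the 35 subunits, which share their libraries, log2 main transcript length and log2 fold change had a Pearson r of 0.65 (Spearman rho 0.62) in normal and 0.74 (0.70) in CML. With exonic length r was 0.27 and 0.45 (rho 0.29 and 0.34). These are descriptions, and genes are not independent replicates.

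Over the 12464 tested genes with a main transcript, r was 0.009 (rho -0.011) in normal, so that no such relation ran over the whole range of length there, and 0.34 (0.39) in CML. Among those with a main transcript of 400 to 600 bases, the median log2 fold change was -2.58 in normal and -3.45 in CML, against 0.66 and 0.81 among those of 2500 to 3000 bases. For genes of 3 kb or more, a length no subunit reached, it was 0.19 in normal and 0.88 in CML. For transcripts under 1 kb, 12 of 23 subunits were called lower in normal and 18 in CML, against 14.6% and 36.2% of all genes of that length. For transcripts of 1 kb or more it was 2 and 7 of 12 subunits, against 2.01% and 2.8%. Set against the median of all genes in the same class of length, 27 of the 35 subunits lay below it in normal and 29 in CML. *Ndufv3* (1582 bases), *Ndufb4* (971 bases) and *Ndufa5* (875 bases) lay far below, at -3.41, -4.56 and -4.39 in CML, where the lower quartile of all genes was -0.82 for 1500 to 2000 bases and -2.24 for 800 to 1000 bases. *Ndufs1* (2590 bases), at 1.56 in CML, lay between the quartiles of -0.19 and 1.59 for genes of its length. The 13 accessory subunits whose main transcripts fall within the length range of the core had medians of -1.71 in normal and -3.04 in CML, with 4 and 10 called lower. The part of transcript length in the differences between fractions was not tested beyond these values and the fits with length offsets.

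**Figure D4:**
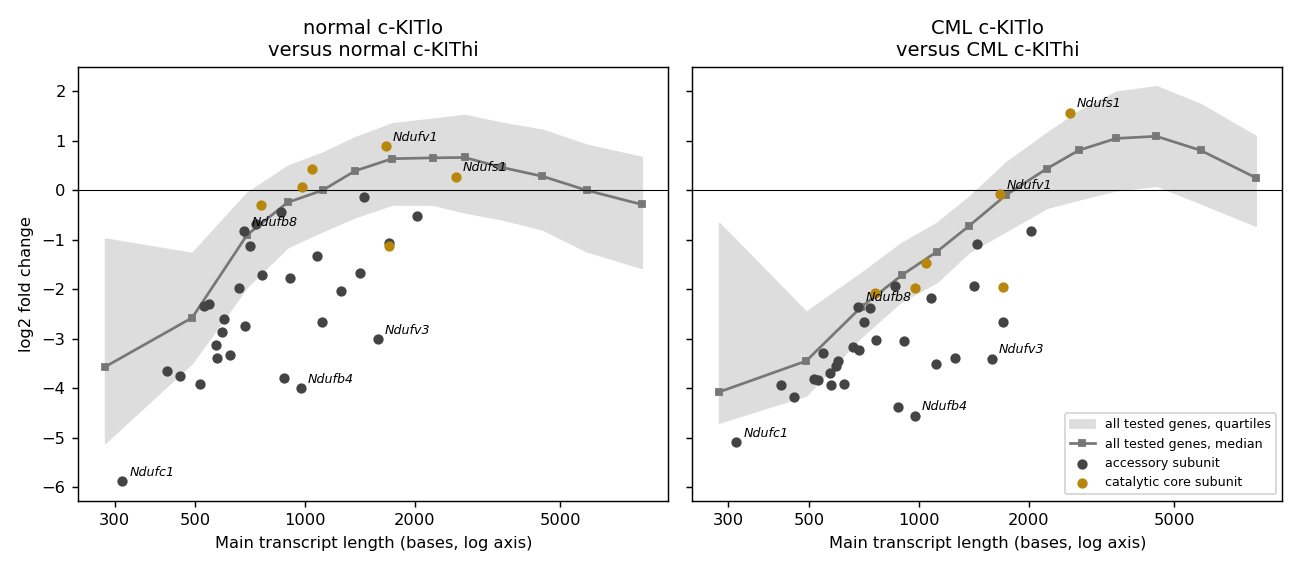
Log2 fold change in c-KITlo compared with c-KIThi LT-HSCs against the length of the main protein-coding transcript (bases, log axis), in normal (left) and CML (right) mice. Dark and gold points are accessory and core subunits, and the grey line and band are the median and quartiles of all tested genes in classes of length; in CML *Ndufv1* lies on the median line, *Ndufs1* at the upper edge of the band, and *Ndufb4* and *Ndufv3* below it.

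CML and normal LT-HSCs were next compared within each c-KIT fraction. In c-KITlo LT-HSCs no subunit passed in edgeR, DESeq2 or limma-voom, and edgeR called 0.0273% of all genes lower and 0.0681% higher. An unadjusted p under 0.05 was seen for 14 subunits, all with lower values in CML, and for 13.6% of all genes, or 7.75% counting only lower values. For main transcripts under 1 kb it was seen for 8 of 23 subunits and, in either direction, for 262 of 974 genes. For those of 1 kb or more it was 6 of 12 subunits and 1508 of 11490 genes. The median log2 fold change was -1.31, against -0.13 for all genes and -1.06 for those under 1 kb. The subunits with the smallest p were *Ndufs3* (-1.64 ± 0.50), *Ndufa7* (-1.98 ± 0.66) and *Ndufv2* (-1.42 ± 0.52), with adjusted p of 0.225, 0.254 and 0.280. Only *Ndufs3* and *Ndufab1* had all 3 CML below all 3 normal libraries (2 of 35, against 7.84% of all genes). Without normal c-KITlo replicate 2, 6 subunits were called lower in CML.

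In c-KIThi LT-HSCs no subunit passed in edgeR, DESeq2 or limma-voom, and edgeR called 0% of all genes lower and 0.0204% higher. An unadjusted p under 0.05 was seen for 2 of the 35, a share near the 6.66% of all genes. The median log2 fold change was -0.44, against 0.030 for all genes. The smallest p belonged to *Ndufc1* (-2.32 ± 0.79), *Ndufa3* (-1.35 ± 0.61) and *Ndufab1* (-0.79 ± 0.47), with adjusted p of 0.676, 0.748 and 0.829. All 3 CML libraries lay below all 3 normal ones for *Ndufc1*, *Ndufa3* and *Ndufs1* (3 of 35, against 6.36% of all genes). Whether the c-KIT fractions differed more in CML than in normal marrow was tested as an interaction. No subunit passed in edgeR, DESeq2 or limma-voom, and edgeR called 0% of all genes. An unadjusted p under 0.05 was seen for 3 of the 35, against 11.3% of all genes. These 3 were *Ndufs3* (-1.91 ± 0.70), *Ndufs8* (-2.04 ± 0.86) and *Ndufs1* (1.29 ± 0.55), with adjusted p of 0.348, 0.416 and 0.416. So a call in CML that was missing in normal marrow, as for *Ndufa7* or the Ndufb genes, was not shown to differ between the disease states.

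The ND subunits encoded by mitochondrial DNA moved in the same direction as the accessory subunits. Of 7 such mRNAs, 6 could be tested, as *mt-Nd4l* was at 0 in every library. All 6 fell in normal c-KITlo compared with c-KIThi LT-HSCs (median -3.11), against 3.4% of all genes called lower. In CML 5 of 6 fell (median -3.51), against 5.53% of all genes. *mt-Nd2* stood at 1087, 1601 and 994 CPM in the 3 normal c-KIThi libraries, 18.8, 17.9 and 83.5 in normal c-KITlo, 119, 421 and 1520 in CML c-KIThi and 27.1, 33.2 and 19.8 in CML c-KITlo. *mt-Nd1* stood at 1492, 1088 and 628 CPM in the 3 normal c-KIThi libraries, 114, 125 and 334 in normal c-KITlo, 551, 809 and 1475 in CML c-KIThi and 187, 235 and 148 in CML c-KITlo. The fractions did not overlap for either gene. The change of *mt-Nd2*, which encodes the membrane arm subunit beside *Ndufc1* and *Ndufc2*, was -4.94 ± 0.92 in normal and -4.69 ± 0.91 in CML (adjusted p = 0.0186 and 0.0155). For *mt-Nd1*, at the ubiquinone site, it was -2.49 ± 0.55 and -2.31 ± 0.55 (adjusted p = 0.0268 and 0.0271), and for *mt-Nd4* and *mt-Nd6* -2.67 and -3.55 in normal and -3.23 and -4.21 in CML. The mRNA that did not pass in CML was *mt-Nd3*, at 2.46 CPM or less in every library. How fully reads of the mitochondrially encoded mRNAs were counted on their genes was not tested.

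Most assembly factors, which build the complex without staying in it, did not pass. Of 18 listed, 17 could be tested, and in normal marrow 2 were called lower and none higher, against 3.4% and 3.1% of all genes (median -0.11). In CML 3 were called lower and 1 higher, against 5.53% and 2.91% of all genes (median -1.13). *Ndufaf2* and *Ndufaf8* fell in both, with *Ndufaf2* at -2.63 ± 0.64 in normal and -2.82 ± 0.65 in CML, and *Ndufaf8* at -2.70 ± 0.71 and -3.65 ± 0.74 (adjusted p between 0.0172 and 0.0447). *Dmac1* fell in CML (-2.61 ± 0.55, adjusted p = 0.0191). *Acad9* stood at 40.5, 54.6 and 26.3 CPM in the 3 normal c-KIThi libraries, 69.1, 82.2 and 87.1 in normal c-KITlo, 28.7, 18.98 and 28.3 in CML c-KIThi and 79.9, 65.5 and 80.4 in CML c-KITlo. *Acad9*, an acyl-CoA dehydrogenase that also serves membrane arm assembly, rose in CML (1.57 ± 0.41, adjusted p = 0.0366) and stood at 0.97 ± 0.40 in normal marrow (adjusted p = 0.146).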

How the data were processed

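Donor BM LT-HSCs were sorted by surface c-KIT, and RNA was amplified with SMARTer v4, made into libraries with Nextera XT and sequenced on a HiSeq 2500. The authors aligned reads with STAR 2.5.3a to the mouse genome of GENCODE M11 (GRCm38), counted them per gene with HTSeq 0.9.1 and deposited the raw counts, without normalization. DRAGEN is also named in the submitters' processing notes, with no role. The strand setting was not given in the sources used here, and these library kits do not mark strand. Entries that belong to no gene entered neither library sizes nor tests. Counts were tested here with edgeR 4.0.16 (R 4.3.3; TMM scaling, filterByExpr, quasi-likelihood F test, 12 libraries in 1 fit) with Benjamini-Hochberg adjustment over all 14676 genes and a threshold of 0.05. The steps were checked on simulated counts. The result of 1 marker list is not reported here. CPM values use TMM-scaled library sizes, and class means are of log2(CPM + 0.5). Exonic lengths, overlaps and the main transcript (APPRIS principal) came from GENCODE M21, which matched 48435 of 48795 genes. Members and lists were chosen with earlier results of these data known. Values in every library were given for at most 8 called members of smallest p per comparison, the 3 of smallest p in each, the 6 core members and the 3 of highest mean CPM per exonic kb (*Ndufa2*, *Ndufa3* and *Ndufa1*). The p-values measure the spread between these samples, and an exact permutation test of 3 against 3 cannot go below 0.1. Alternatives were medians of ratios, DESeq2 1.42.0, limma-voom (limma 3.58.1) with sample weights, no filter, only the groups compared, a replicate block, thinning to 7753878 counts, exonic length offsets and each library left out. Offsets for main transcript length were added after the data had been seen.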

Additional observations from a re-analysis of the deposited data

How the results depend on the processing

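With each of the 12 libraries left out in turn, the number of subunits called lower in c-KITlo compared with c-KIThi LT-HSCs was between 0 and 23 for normal and between 0 and 31 for CML mice, and the number called higher between 0 and 1 in both (*Ndufv1* in normal, without normal c-KITlo replicate 2). For CML compared with normal c-KITlo it ran from 0 to 6 lower. The core median ran from -0.42 to 0.51 in normal marrow, and CML medians from -3.63 to -2.76 for accessory subunits by role, -3.63 to -2.65 for those by name and -3.46 to -2.58 for the membrane arm. Whether replicate numbers pair the samples is not known. Deviations of same-numbered libraries of different groups had correlations of -0.136 to 0.096. Those of differently numbered libraries ran from -0.166 to 0.171, a similar range, so these values cannot decide it. With the replicate block 6 subunits were called lower in normal and 15 in CML, and none higher. DESeq2 called 22 lower in normal marrow, and limma-voom and the fit of only the groups compared called 0. In CML these called 31, 33 and 33 lower. In libraries thinned to equal depth 14 subunits were called lower in normal and 26 in CML. Without the filter on low counts *Ndufs1* was not called in CML (0 higher), 3 subunits, *Ndufa7* among them, were called lower in CML than normal c-KITlo LT-HSCs, and 1, *Ndufc1*, lower in CML than normal c-KIThi LT-HSCs.

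Offsets for exonic length left 0 subunits higher in CML and gave CML medians of -0.97 for the core, -2.16 for accessory subunits by role, -1.47 and -2.16 by name, and -1.84 and -1.80 for the matrix and membrane arms. Offsets for main transcript length, added after the data had been seen, left 8 lower and 0 higher in CML, with medians of -0.089, -0.92, -0.62, -0.92, -0.86 and -0.88 in the same order. In normal marrow they gave -1.25 for accessory subunits by role, -1.18 for those by name and -1.06 for the membrane arm, and called 17 lower, 13 of them among the 14. With the longest transcript in place of exonic length, r was 0.16 in normal and 0.32 in CML, and with the main transcript, also chosen after the data had been seen, 0.65 and 0.74.

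Signs changed for uncalled values. In normal marrow *Ndufs8* was at -0.14 with medians of ratios and with DESeq2, -0.071 in thinned libraries, and -0.65 to 0.60 over the fits with a library left out. With main transcript offsets *Ndufs1* was at -0.13 and *Ndufs7* at 0.70. With a library left out, *Ndufs1* was at -0.084 to 0.57, *Ndufs3* at -0.19 to 0.80 and *Ndufs7* at -1.36 to 0.26. In CML *Ndufv1* was at 0.10 with limma-voom, 0.046 without the filter, 0.10 with main transcript offsets and -0.25 to 0.27 with a library left out. The median of all subunits in CML compared with normal c-KIThi LT-HSCs, at -0.44, was 0.19 with limma-voom. The cause of these changes was not tested. The lowest count of a subunit in a library was 137, in reads of amplified RNA. Whether few starting molecules limited any subunit was not tested.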

Other observations

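The other respiratory chain complexes were listed beside complex I. The list held 43 nuclear genes of complexes II to V. Most encode subunits, but it also held *Cycs*, for the electron carrier cytochrome c, and *Atpif1*, for an inhibitor of ATP synthase. Of the 43, 15 fell and 1 rose in normal c-KITlo compared with c-KIThi LT-HSCs (median log2 fold change -2.16). In CML 25 fell and none rose (median -2.68; edgeR). Over all genes 3.4% were called lower and 3.1% higher in normal, and 5.53% and 2.91% in CML. Among genes with a main transcript under 1 kb, 14.6% were called lower in normal and 36.2% in CML. *Atp5k* stood at 10500, 12151 and 11940 CPM in the 3 normal c-KIThi libraries, 90.7, 31.5 and 250 in normal c-KITlo, 561, 4322 and 6431 in CML c-KIThi and 67.3, 69.5 and 67.2 in CML c-KITlo. *Atp5k*, a small membrane subunit of ATP synthase, changed by -6.54 ± 1.02 in normal and -5.79 ± 0.98 in CML (adjusted p = 0.0142 and 0.0151), and its fractions did not overlap. *Usmg5*, another small ATP synthase subunit, stood at -5.42 ± 0.79 and -4.14 ± 0.74, and *Cox6c* of complex IV at -4.04 ± 0.71 and -4.37 ± 0.72 (adjusted p between 0.0151 and 0.0172). The subunit that rose in normal marrow was *Sdha*, the flavoprotein of succinate dehydrogenase, singled out after its value was seen (1.68 ± 0.38, adjusted p = 0.0282). In CML compared with normal LT-HSCs none of the 43 passed in either fraction in edgeR, with 4 at an unadjusted p under 0.05 in c-KITlo and 1 in c-KIThi, against 13.6% and 6.66% of all genes.

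Of 11 regulators of nuclear respiratory genes none passed in either comparison of the fractions in edgeR, with 2 at an unadjusted p under 0.05 in normal and 4 in CML, against 26.6% and 26.9% of all genes. The list's median log2 fold changes were 0.56 and 1.42, beside 0.16 and 0.047 for all genes. *Polrmt* stood at 1.16, 14.8 and 13.3 CPM in the 3 normal c-KIThi libraries, 149, 64.3 and 9.15 in normal c-KITlo, 10.99, 9.82 and 10.7 in CML c-KIThi and 75.2, 77.3 and 76.8 in CML c-KITlo. *Polrmt*, the mitochondrial RNA polymerase, differed by 2.92 ± 0.95 in normal and 2.86 ± 0.94 in CML (adjusted p = 0.0798 and 0.0757). Its CML fractions did not overlap, and its normal fractions did. *Tfam*, which packages mitochondrial DNA, stood at 0.071 ± 0.38 in normal and -0.90 ± 0.38 in CML (adjusted p = 0.934 and 0.154).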
